A study of Mus musculus with 6 samples.

Results

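The 8 CC chemokine genes Ccl2, Ccl5, Ccl7, Ccl8, Ccl9, Ccl11, Ccl17 and Ccl20 were followed in mouse embryonic fibroblasts (MEFs) treated with TNFα. They were picked by gene symbol, all 8 were found among 21837 symbols in the expression table, and the entry with the highest mean was used for each. The MEFs were primary wildtype cells of the strain C57BL/6x 129, prepared from littermate embryos of day 13.5 and passaged 4 times. RNA was sequenced from 1 untreated library and 1 library for each of 1.5, 6 and 24 hr of TNFα at 20 ng/ml, so all treated libraries share 1 control and no p-value is given. H3K4me3, a histone mark of promoters, was profiled in untreated MEFs by 1 ChIP-seq library with 1 input library. Cultures of this kind are a mixture of whatever adherent cells the embryo gave, and nothing says whether the 4 RNA libraries came from 1 culture.

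CC chemokines are small secreted proteins named for a pair of neighbouring cysteines, and they attract leukocytes by binding G protein-coupled receptors of the Ccr family. TNFα binds its receptor Tnfrsf1a, which signals through Tradd, Ripk1 and Traf2 to the IκB kinases and frees NF-κB to enter the nucleus. Several chemokine genes are textbook NF-κB targets in fibroblasts, endothelium and macrophages. Ccl2, Ccl7 and Ccl8 belong to the monocyte chemoattractant group and Ccl11 is an eosinophil attractant, eotaxin. Ccl5 is known as RANTES and Ccl9 is a ligand of Ccr1. Ccl17 is the ligand of Ccr4, and Ccl20 that of Ccr6.

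In the mm9 genome with the GENCODE annotation, 6 of the 8 genes lie in a pair of clusters on chromosome 11. Ccl2 (chr11:81849073-81850955), Ccl7 (chr11:81859214-81861027), Ccl11 (chr11:81871325-81876457) and Ccl8 (chr11:81928687-81930301) lie in this order on the plus strand within 81.2 kb. Ccl5 (chr11:83339280-83344020) and Ccl9 (chr11:83386421-83392138) lie on the minus strand further along the chromosome. Ccl17 (chr8:97334353-97335935) and Ccl20 (chr1:83113341-83115742) lie outside these clusters, on the plus strands of chromosomes 8 and 1.

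Promoter sequences were matched for 4 of the 8 genes, Ccl8, Ccl9, Ccl17 and Ccl20, in the RefSeq table of build GRCm38.p6. They are shown because NF-κB acts through promoters and enhancers and because these 4 genes span weak to strong responses. Each runs 5′ to 3′ on the gene's strand from 250 bases before the start to 50 bases after it, and capitals mark matches to the κB consensus or to TATAAA on either strand. They lie at chr11:82114935-82115234 for Ccl8, chr11:83578587-83578886 for Ccl9, chr8:94810203-94810502 for Ccl17 and chr1:83116516-83116815 for Ccl20 in that build.
Ccl20: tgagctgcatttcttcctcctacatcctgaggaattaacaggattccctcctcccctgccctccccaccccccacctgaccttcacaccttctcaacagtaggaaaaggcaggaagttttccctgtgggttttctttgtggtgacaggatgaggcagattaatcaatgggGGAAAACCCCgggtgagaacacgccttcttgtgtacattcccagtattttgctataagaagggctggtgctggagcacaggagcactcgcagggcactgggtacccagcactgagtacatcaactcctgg
Ccl8: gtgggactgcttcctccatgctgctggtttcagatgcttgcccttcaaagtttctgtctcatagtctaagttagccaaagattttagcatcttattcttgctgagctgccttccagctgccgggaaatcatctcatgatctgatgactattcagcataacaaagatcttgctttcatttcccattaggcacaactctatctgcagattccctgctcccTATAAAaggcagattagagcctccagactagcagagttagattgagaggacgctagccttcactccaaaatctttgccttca
Ccl9: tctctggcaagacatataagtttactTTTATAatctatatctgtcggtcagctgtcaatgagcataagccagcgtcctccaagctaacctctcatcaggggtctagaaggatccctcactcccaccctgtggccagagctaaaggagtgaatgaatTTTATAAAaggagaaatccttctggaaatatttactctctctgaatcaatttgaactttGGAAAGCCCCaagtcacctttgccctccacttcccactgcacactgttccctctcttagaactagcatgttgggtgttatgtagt
Ccl17: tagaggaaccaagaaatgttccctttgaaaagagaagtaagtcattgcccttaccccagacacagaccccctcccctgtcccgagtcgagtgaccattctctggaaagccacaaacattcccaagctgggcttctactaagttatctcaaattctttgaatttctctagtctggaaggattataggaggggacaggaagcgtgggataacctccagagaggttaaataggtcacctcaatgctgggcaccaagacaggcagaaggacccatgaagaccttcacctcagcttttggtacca
The κB match of Ccl20 was 80 to 71 bases before the start and that of Ccl9 was 35 to 26 bases before it, both on the minus strand. Such a match was present in 9.57% of the 17352 coding promoters in the table. TATAAA, present in 12.2% of them, was found 32 to 27 bases before the start of Ccl8. Ccl9 held it 3 times, with 2 of the matches overlapping each other, at 94 to 89 and at 92 to 87 bases before the start. The AP-1 motif TGANTCA, present in 7.10% of the coding promoters, was found in Ccl9 alone, 53 to 47 bases before the start, where it reads on both strands and overlaps none of the other matches. No match to the 3 motifs was found in the window of Ccl17. All 4 promoters were poor in CpG, with 2 CpG dinucleotides in Ccl8 and Ccl9 and 3 in Ccl17 and Ccl20. The median over the coding promoters was 14, and 21.6% of them held 3 or fewer.

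On the deposited scale each of the 8 mRNAs had a higher value than in the untreated library at 1.5, 6 and 24 hr, by 1.24-fold to 97.0-fold. The lowest of these values, Ccl17 at 6 hr, was within counting error of no difference, and Ccl9 at 1.5 hr had a log2 ratio of −0.013 against genes of like GC content. Ccl2, Ccl20 and Ccl5 formed the strong end, Ccl7 and Ccl11 came next, and Ccl8, Ccl9 and Ccl17 the weak end at 1.5 hr. Levels are given as RPKM on the deposited scale, as the mean of the columns R1 and R2 of a library. This scale divides by transcript length, so that genes can be compared within a library. Its values run far above RPKM by the usual definition, so they cannot be set beside RPKM from other data. In bulk RNA, a larger number of expressing cells and more RNA per cell cannot be told apart.

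Ccl2, the main monocyte attractant, had a level of 187 RPKM before TNFα, which became 18120, 4967 and 13491 RPKM at 1.5, 6 and 24 hr. The untreated library was far below the others, and the 1.5 hr library was the highest. The ratios were 97.0-fold, 26.6-fold and 72.2-fold, or 6.60, 4.73 and 6.17 on the log2 scale. Ccl2 was also the member whose R1 and R2 differed most. R2 was above R1 by log2 ratios of 1.12, 1.09, 0.67 and 1.20 at 0, 1.5, 6 and 24 hr, and 8 other coding genes of the 6022 tested had an R2 as far above R1 as Ccl2 in all 4 libraries, while 7 had an R1 as far above R2. The log2 ratios to untreated stayed alike in R1 and R2 at 1.5 hr (6.62 and 6.59) and at 24 hr (6.12 and 6.20), while at 6 hr they were 5.02 and 4.58.

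Ccl7, whose gene starts 10.1 kb from that of Ccl2 and whose protein also attracts monocytes, had levels of 271, 7927, 2678 and 5451 RPKM at 0, 1.5, 6 and 24 hr. It was the highest of the 8 before TNFα and the runner-up to Ccl2 at each later time. Its log2 ratios were 4.87, 3.30 and 4.33. Ccl2 and Ccl7 together made up 68.3% of the summed level of the 8 genes in the untreated library and 85.4% at 1.5 hr. That sum was 670 RPKM before TNFα and 30491, 10933 and 24196 RPKM at the 3 later times.

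Ccl8, at the far end of the same cluster, took another course than Ccl2 and Ccl7. Its levels were 53.4, 189, 130 and 580 RPKM, so that the 24 hr library stood above all others. The log2 ratios were 1.82, 1.29 and 3.44. Ccl11, the eosinophil attractant between Ccl7 and Ccl8, was the lowest of the 8 before TNFα, with 8.25 RPKM, and then reached 108, 58.3 and 152 RPKM. It too was highest at 24 hr, and its log2 ratios of 3.72, 2.82 and 4.21 were above those of Ccl8 at each time. Its untreated value rests on few reads, estimated at 9 in R1 and 10 in R2, and the exact 95% interval for counting error of the log2 ratio at 1.5 hr ran from 2.82 to 4.95 in R1.

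Ccl5, which attracts T cells and monocytes, had a value above the one before in every later library on the deposited scale. Its levels were 47.5, 1591, 2258 and 3131 RPKM at 0, 1.5, 6 and 24 hr. Its log2 ratios were 5.06, 5.57 and 6.04, and no tested coding gene had a higher ratio at 6 hr. On this scale 10 of the 6022 coding genes tested (0.166%) were higher at each later time. The step from 6 to 24 hr turned under the other scalings, with log2 ratios to untreated of 4.62, 6.31 and 5.94 when the median gene was set to 0, and of 4.74, 6.46 and 6.07 against genes of like GC content, so that 6 hr was then the highest. Ccl9, which lies 48.1 kb upstream of Ccl5 by gene start, had levels of 43.8, 113, 63.2 and 224 RPKM. Its log2 ratios were 1.36, 0.53 and 2.35, lower at 6 hr than at 1.5 hr as deposited. With the median gene set to 0 they were 0.92, 1.27 and 2.25, higher at each later time. On that scale Ccl8 (1.38, 2.03 and 3.34) and Ccl11 (3.27, 3.56 and 4.10) were also higher at each later time, and Ccl5 was not. The share of tested genes with this course on that scale was not counted. Of its 2989 words of 50 bases in annotated transcripts, 48 were also in transcripts of other coding genes, while the other 7 members shared none.

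Ccl20, which attracts Ccr6-positive dendritic and T cells, had 27.4 RPKM before TNFα and 2341, 739 and 1092 RPKM afterwards. Its log2 ratios of 6.41, 4.75 and 5.31 were close to those of Ccl2, although its level at 1.5 hr was 7.74 times lower. Ccl17, a ligand for Ccr4 on helper T cells, had the lowest ratios of the 8 at 6 and 24 hr, while at 1.5 hr Ccl9 was lower. Its levels were 31.6, 102, 39.1 and 75.5 RPKM, with log2 ratios of 1.69, 0.31 and 1.25. At 6 hr its level was not distinguishable from the untreated one at this depth, with about 18 and 19 reads in R1 and an interval for the log2 ratio from −0.71 to 1.31.

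**Figure D1:**
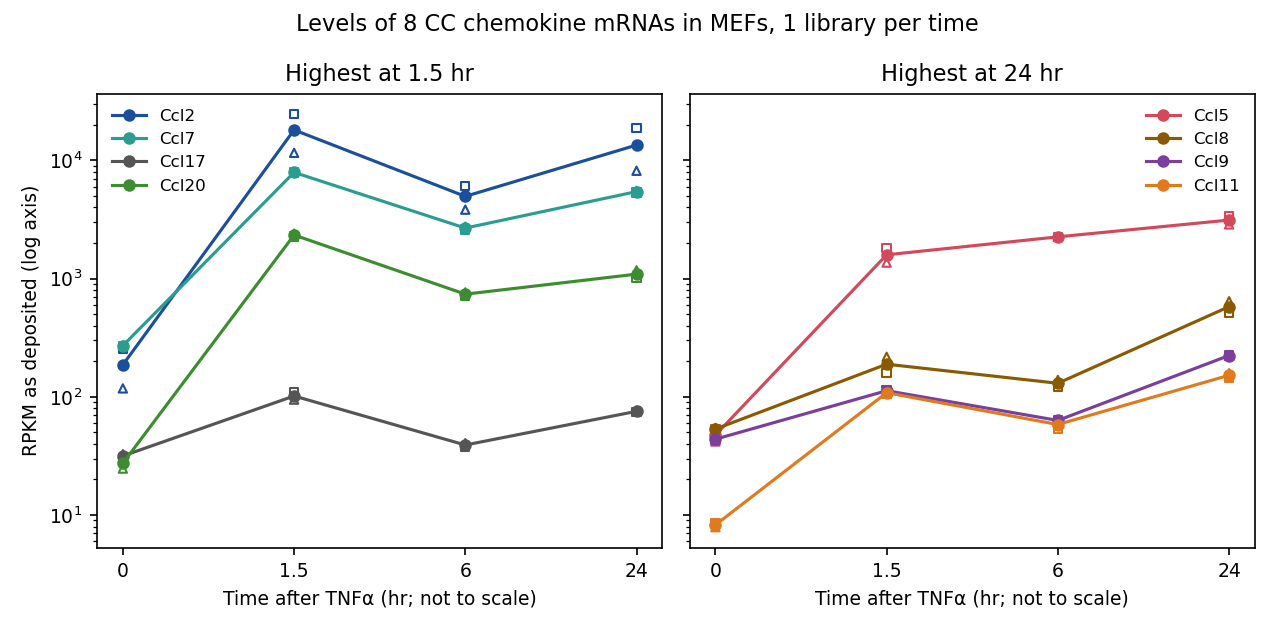
The level of each mRNA, in RPKM as deposited on a log axis, is plotted against time after TNFα, with 1 library per time. Filled circles joined by lines are the means of R1 (open triangles) and R2 (open squares). On this scale Ccl2, Ccl7, Ccl17 and Ccl20 (left) are highest at 1.5 hr and Ccl5, Ccl8, Ccl9 and Ccl11 (right) at 24 hr, and Ccl2 shows the gap between R1 and R2.

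In the untreated library the order of the levels was Ccl7, Ccl2, Ccl8, Ccl5, Ccl9, Ccl17, Ccl20 and Ccl11. The R1 and R2 values overlapped between the neighbours Ccl8 (54.6 and 52.2 RPKM) and Ccl5 (41.9 and 53.2), and between Ccl5 and Ccl9 (43.1 and 44.5). At 24 hr the order had become Ccl2, Ccl7, Ccl5, Ccl20, Ccl8, Ccl9, Ccl11 and Ccl17, with no overlap between neighbours in their columns. R1 and R2 are columns of 1 library, so their gap does not measure a spread between cultures.

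The calls were read against all coding genes. A gene was tested when its mean over the 4 libraries was above 100 RPKM on the deposited scale, which held for 6022 of 20207 coding genes and for 6 of the 8 members, Ccl11 and Ccl17 having failed. Before TNFα, Ccl2 and Ccl7 alone were above 100 RPKM, so Ccl5, Ccl8, Ccl9 and Ccl20 passed through their treated libraries, and the counts over the 6 are a description only. At 1.5 hr, 6 of these 6 members were at least 2-fold higher, against 29.8% of the tested genes. At 6 hr it was 5 of 6, all but Ccl9, against 1.84%, and at 24 hr 6 of 6 against 16.8%. No member was at least 2-fold lower at any time, while 7.94%, 31.5% and 12.8% of the tested genes were, at 1.5, 6 and 24 hr. Without the filter, 8, 6 and 8 of the 8 were at least 2-fold higher, with Ccl9 and Ccl17 short of it at 6 hr. Of all 20207 coding genes without the filter, 23.8%, 4.07% and 14.5% were at least 2-fold higher and 14.1%, 31.3% and 17.8% at least 2-fold lower, a gene that went to or from 0 counting as changed.

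The whole libraries shifted against each other on the deposited scale. The median log2 ratio of the tested genes was 0.44, −0.74 and 0.10 at the 3 times. The median of the 6 tested members was 4.97, 4.02 and 4.82. With the median of the tested genes set to 0, 5 of the 6 members were at least 2-fold higher at 1.5 hr, where 15.8% of the tested genes were, and Ccl9 lost the call with a log2 ratio of 0.92. At 6 hr it was 6 of 6 against 7.22% and at 24 hr 6 of 6 against 14.4%. On this scale Ccl9 and Ccl17 stood 1.27 and 1.05 above the median gene at 6 hr.

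The shift also went with GC content. At 1.5 hr the 296 tested genes lowest in GC had a median log2 ratio of 1.39 and the 296 highest in GC one of −0.73. The transcripts of Ccl2, Ccl7, Ccl8, Ccl9, Ccl11 and Ccl20 had a GC content of 39.7% to 47.6%, below the median of 53.3% over the tested genes, and those of Ccl5 and Ccl17 one of 53.6% and 52.0%. Set against genes of like GC content, the log2 ratios at 1.5 hr were 5.22 for Ccl2, 5.02 for Ccl20, 4.74 for Ccl5, 3.48 for Ccl7 and 2.33 for Ccl11. Ccl17 was at 1.05, Ccl8 fell under the 2-fold mark with 0.82, and the value of Ccl9 turned to −0.013. By 24 hr all 8 were above the 2-fold mark again on this scale, from 1.05 for Ccl17 to 6.07 for Ccl5.

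**Figure D2:**
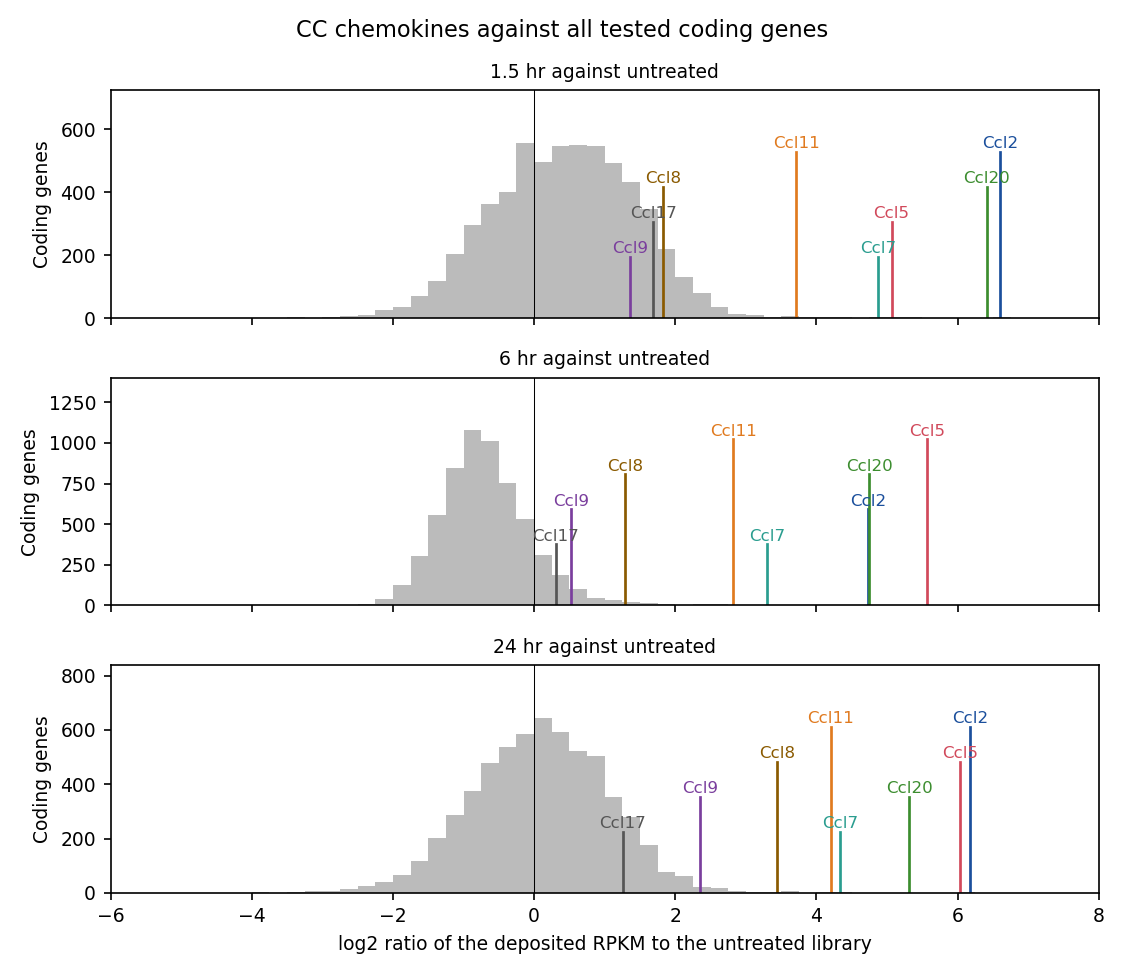
Grey bars count the 6022 tested coding genes by their log2 ratio to the untreated library in bins of 0.25 at 1.5, 6 and 24 hr, and coloured lines mark the 8 chemokines, their heights having no meaning. Ccl2, Ccl5, Ccl7, Ccl11 and Ccl20 lie beyond the bulk of the genes at all 3 times, while Ccl17 lies within it at each.

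After 1.5 hr the 8 genes took different courses, of which some depended on the scale. As deposited, Ccl2, Ccl7, Ccl17 and Ccl20 were highest at 1.5 hr, as 59.4% of the tested genes were. Ccl5, Ccl8, Ccl9 and Ccl11 were highest at 24 hr, as 6.06% of the tested genes were. R1 alone and R2 alone gave the same time of the highest value for all 8. With the libraries scaled to the median gene or to the sum over coding genes, the time stayed the same for 7 of them, and that of Ccl5 became 6 hr. Against genes of like GC content it became 6 hr for Ccl5 and Ccl17, and Ccl2 was level between 1.5 hr (5.22) and 24 hr (5.23). The log2 ratio of 24 hr to 1.5 hr was 1.62 for Ccl8, 0.99 for Ccl9, 0.98 for Ccl5 and 0.49 for Ccl11, where the median of the tested genes was −0.33. Of the other tested genes 2 exceeded Ccl8 in this ratio, 13 exceeded Ccl9, 14 exceeded Ccl5 and 93 exceeded Ccl11. Ccl5, Ccl8 and Ccl9 passed the level filter through treated libraries, whose values also make the ratio, so these ranks are a description only. Genes under the filter were not counted, among them Ccl6 with 28.2 and 149 RPKM at 1.5 and 24 hr. The log2 ratio of 24 hr to 1.5 hr was −0.43 for Ccl2 and for Ccl17, −0.54 for Ccl7 and −1.10 for Ccl20, and 97.8% of the tested genes lay above Ccl20.

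Between 1.5 and 6 hr, 7 of the 8 members became lower and Ccl5 higher, as 12.4% of the tested genes did. A dip at 6 hr below both neighbouring times was found for 82.9% of the tested genes, so it was not particular to the chemokines. With the median gene set to 0, Ccl2, Ccl7, Ccl17 and Ccl20 still went down from 1.5 to 6 hr, by 0.54, 0.24, 0.05 and 0.34 on the log2 scale, whereas Ccl5, Ccl8, Ccl9 and Ccl11 went up, by 1.83, 0.79, 0.49 and 0.43. Both ratios share the 1.5 hr library, so their likeness is no separate observation. From 6 to 24 hr, again relative to the median gene, the division was not the same, with 1.19 for Ccl8, 0.86 for Ccl9, 0.48 for Ccl2, 0.42 for Ccl11, 0.06 for Ccl7, −0.02 for Ccl17, −0.40 for Ccl20 and −0.49 for Ccl5. Set against genes of like GC content, the change from 1.5 to 6 hr was small for 4 genes, with −0.25 for Ccl2, −0.10 for Ccl20, −0.0024 for Ccl7 and 0.10 for Ccl17. It was larger for the other 4, with 1.82 for Ccl5, 1.01 for Ccl8, 0.78 for Ccl9 and 0.67 for Ccl11.

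**Figure D3:**
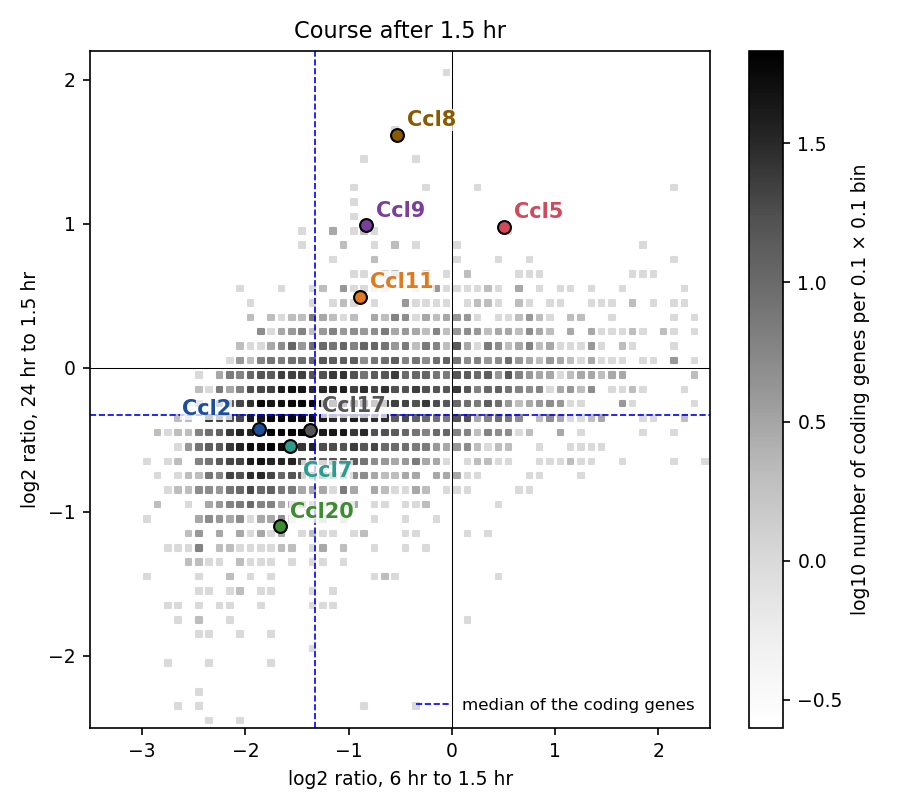
Each chemokine is placed by its log2 ratio of 6 hr to 1.5 hr and of 24 hr to 1.5 hr, over grey squares that count the tested coding genes within the plotted range per bin. Dashed lines are the medians of the tested genes, and Ccl5, Ccl8, Ccl9 and Ccl11 lie to the upper right of both while Ccl2, Ccl7, Ccl17 and Ccl20 lie to the lower left.

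The genes nearest to each tested member were found by the Euclidean distance of their 3 log2 ratios among 6022 coding genes. Ccl2 and Ccl20 were each other's nearest gene, at a distance of 0.88, although they lie on different chromosomes. Next after Ccl20, the genes nearest to Ccl2 were Ccl5 (1.75) and Cxcl2 (2.09), a neutrophil attractant. Ccl5 had Ccl20 (1.74), Ccl2 (1.75) and Cxcl2 (1.80), while Ccl20 had Cxcl2 (1.32) and Cxcl10 (1.45) after Ccl2. These distances are large because few genes had ratios of this size.

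Ccl7 was nearer to genes outside the family than to Ccl2. Its nearest were Gbp2 (0.19), an interferon-induced GTPase, Rnd1 (0.33) and Nfkbia (0.47), which encodes the NF-κB inhibitor IκBα, while Ccl2 was 2.91 away. Ccl8 was nearest to the matrix metalloproteinases Mmp3 (0.38) and Mmp9 (0.87), with Tmed5 (0.77) between them. Ccl9 was nearest to Ass1 (0.21), H2-T10 (0.35) and Grb14 (0.45). Each of these ratios comes from 1 library per time, and the distance carries no error.

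Some neighbours within a cluster shared the time of the highest deposited value and others differed in it. Along the cluster from Ccl2 to Ccl8, Ccl2 and Ccl7 (1.5 hr) were followed by Ccl11 (24 hr), then by Ccl12, which is not among the 8, and by Ccl8. Ccl12, another monocyte attractant, had levels of 35.5, 631, 110 and 261 RPKM and was highest at 1.5 hr. Its neighbour Ccl8, which starts 13.3 kb away, was highest at 24 hr. In the cluster from Ccl5 to Ccl4, Ccl6 lies beside Ccl9 and had levels of 16.6, 28.2, 36.2 and 149 RPKM, higher at each later time on the deposited scale. Ccl3 and Ccl4, further along, were highest at 1.5 hr with 51.9 and 88.1 RPKM. Ccl6, Ccl3 and Ccl4 were under the level filter and are named for their position, after their values were seen.

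**Figure D4:**
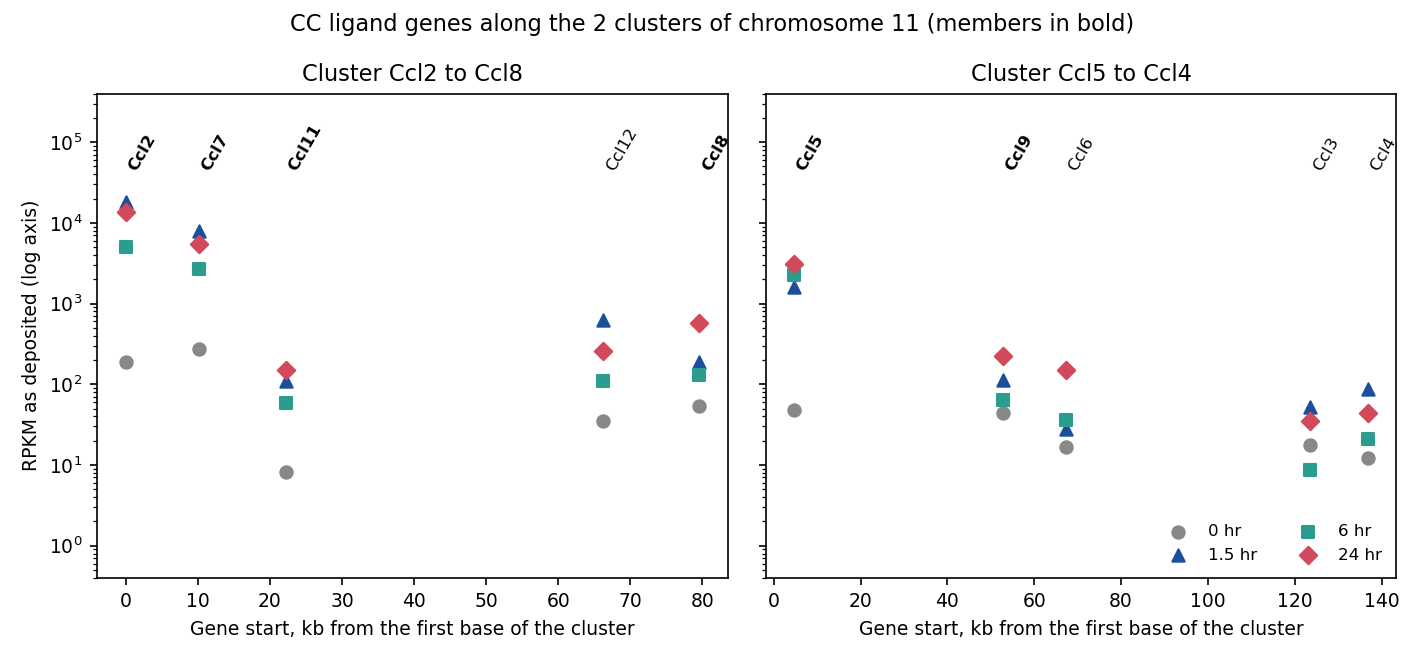
Levels in RPKM as deposited, on a log axis, are shown at 0, 1.5, 6 and 24 hr for the CC ligand genes of the clusters from Ccl2 to Ccl8 (left) and from Ccl5 to Ccl4 (right), by distance of the gene start from the first base of the cluster. Within each cluster, genes highest at 1.5 hr (blue triangles on top) and genes highest at 24 hr (red diamonds on top) lie side by side.

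Before TNFα, none of the 8 genes had an H3K4me3 peak at its start. The distance from the nearest annotated start to the nearest of 11157 deposited peaks was 26.0 kb for Ccl17, 42.6 kb for Ccl20, 54.7 kb for Ccl5 and 99.7 kb for Ccl9. For the 4 genes of the other cluster it was 727 kb for Ccl2, 717 kb for Ccl7, 705 kb for Ccl11 and 648 kb for Ccl8. No peak overlapped the 81.2 kb from Ccl2 to Ccl8 or the 139 kb from Ccl5 to Ccl4. The members were thus without a peak within 1 kb in 8 of 8 cases, whereas 54.1% of 19806 coding genes had one.

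The contrast was larger still against genes of like level. Of 8742 coding genes with an untreated level in the range of the 8 members, from 8.25 to 271 RPKM, 80.4% had a peak within 1 kb. Of the 972 genes with an untreated level between those of Ccl2 and Ccl7, 89.5% had one. Among tested genes at least 2-fold higher at 1.5 hr, 92.8% of 1767 had a peak, and among those at least 8-fold higher 65.9% of 41 had one. The 14 of these 41 without a peak included the members Ccl2, Ccl5, Ccl7 and Ccl20, and also Ccl12, Cxcl2, Cxcl10, Cx3cl1 and Icam1, which are named after their values were seen. The ChIP was made without TNFα and with 1 library, and the list holds called peaks, so a signal below the caller's threshold was not analysed here.

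The nearest peaks belonged to other genes. The peak closest to Ccl2, Ccl7, Ccl11 and Ccl8 (chr11:82576435-82580276, 1808 tags, 53.2-fold enrichment) lay at starts of Cct6b and Zfp830. That closest to Ccl5 and Ccl9 (chr11:83285208-83289268, 1461 tags, 86.6-fold) lay at a start of Taf15, and that closest to Ccl17 (chr8:97360373-97363570, 1743 tags, 67.9-fold) at starts of Ciapin1 and Coq9. The peak closest to Ccl20 (chr1:83155934-83156970, at a start of Wdr69) was the weakest of the 4, with 132 tags and 34.0-fold enrichment, where the median of all peaks was 1049 tags.

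**Figure D5:**
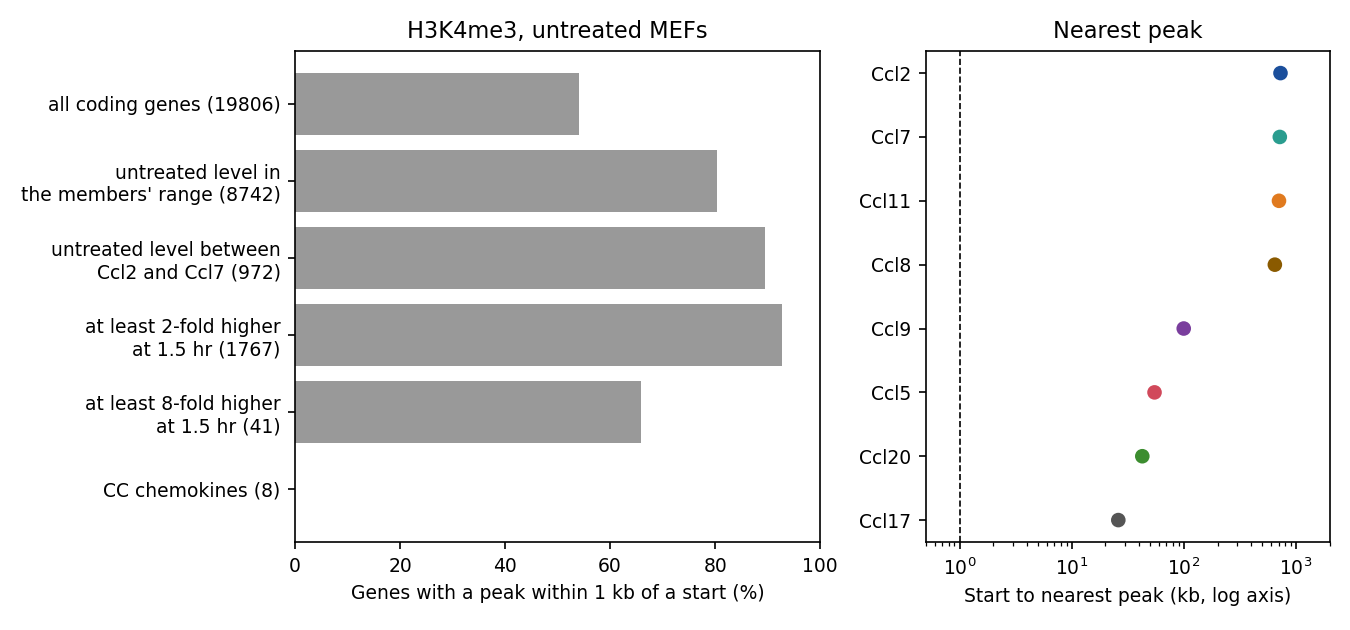
Left, the percent of genes with an H3K4me3 peak within 1 kb of an annotated start in untreated MEFs, for 5 sets of coding genes (number of genes in brackets) and for the 8 CC chemokines, none of which had one. Right, the distance from the start of each chemokine gene to the nearest peak in kb on a log axis, with 1 kb as the dashed line; all 8 lie between 26.0 and 727 kb.

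Few of the other CC ligands passed the level filter. Of 15 further ligands, 14 were in the table and 2, Ccl12 and Ccl27a, passed the level filter. Ccl12 was at least 2-fold higher at each time, with log2 ratios of 4.15, 1.63 and 2.87. Ccl27a, a skin-associated ligand of Ccr10, went the other way, with levels of 213, 120, 80.9 and 131 RPKM and log2 ratios of −0.83, −1.39 and −0.70. The ligands Ccl22, Ccl24 and Ccl26 were listed at 0 in all 4 libraries. Without the filter, which Ccl11 and Ccl17 failed too, 4, 2 and 5 ligands were at least 2-fold higher at 1.5, 6 and 24 hr. Of all coding genes 23.8%, 4.07% and 14.5% were. At least 2-fold lower were 3, 6 and 4 ligands, against 14.1%, 31.3% and 17.8% of all coding genes.

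The receptors for these ligands were near the floor. All 14 CC receptors and decoy receptors were in the table, none passed the level filter, and their summed level was 73.1, 107, 59.3 and 55.5 RPKM at 0, 1.5, 6 and 24 hr, below that of Ccl2 alone at every time. Ccr2, the receptor of Ccl2 and Ccl7, did not exceed 2.77 RPKM. Ccr6, the receptor of Ccl20, was listed at 0 throughout.

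The pathway from the TNF receptor to NF-κB was expressed, and its feedback inhibitors stood highest relative to untreated. Of 18 listed genes, 14 passed the filter. At the 3 times, 10, 5 and 7 of them were at least 2-fold higher, against the 29.8%, 1.84% and 16.8% of all tested genes given above. At 6 hr 2 of them (Tnfrsf1a and Tradd) were at least 2-fold lower. Before TNFα, Map3k7, Nfkbie and Tnfaip3 were under the level of the filter, with 61.6, 43.0 and 7.13 RPKM. They passed it through their treated libraries, so the counts over the 14 are a description only. Without the filter, 12, 5 and 8 of the 18 were at least 2-fold higher, against 23.8%, 4.07% and 14.5% of all coding genes. The median log2 ratio of the 14 was 1.65, 0.12 and 0.94. Tnfaip3, which encodes the ubiquitin-editing inhibitor A20, had levels of 7.13, 399, 70.8 and 149 RPKM and log2 ratios of 5.81, 3.31 and 4.39. Nfkbia had 319, 7211, 2655 and 5772 RPKM (4.50, 3.06 and 4.18), and Nfkbie, another IκB, had 43.0, 530, 225 and 210 RPKM (3.62, 2.38 and 2.29). On the deposited scale all 3 were highest at 1.5 hr, like Ccl2, Ccl7, Ccl17 and Ccl20 and like 59.4% of the tested genes. Their time of the highest value was not read on the other scales.

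Markers of cell types were read in the same libraries. All 10 fibroblast markers were present in every library, led by Col1a1 with 44002 RPKM in the untreated library. All 8 markers of macrophages and other leukocytes were present too, with a summed level of 5474, 18944, 3595 and 8973 RPKM at 0, 1.5, 6 and 24 hr. Lyz2, the macrophage lysozyme, made up most of that sum at 1.5 hr, with 2257, 14668, 2692 and 7187 RPKM. The summed level of the other 7 was 3217, 4276, 902 and 1787 RPKM. At 1.5, 6 and 24 hr this was 1.33, 0.281 and 0.555 times the untreated sum, in which Laptm5 was the largest part with 2154 RPKM. Lyz2, left out of these ratios, had log2 ratios of 2.70, 0.25 and 1.67. At 1.5 hr the log2 ratios of Ptprc, Emr1 and Mpeg1 were 1.20, 1.49 and 1.28. Those of Itgam, Cd68, Laptm5 and Csf1r were 0.65, 0.44, 0.38 and −0.04. For the 8 chemokines the summed level was 45.5, 16.3 and 36.1 times the untreated one. Csf1r, the receptor that defines macrophages, had 295, 287, 90.1 and 124 RPKM. Macrophages make many CC chemokines, Ccl9 and Ccl6 among them, and the part of such cells in the levels above was not tested. Lymphocyte markers summed to at most 10.7 RPKM and endothelial ones to at most 6.18, with Cd3e at 0 throughout, and of the epithelial markers, which summed to at most 49.1 RPKM, Epcam was at 0.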

How the data were processed

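RNA-seq reads (poly-A, directional, paired-end) were mapped by the authors to mm9 with TopHat and turned into RPKM per RefSeq transcript with a script of their own. The deposited RPKM table holds 2 columns, R1 and R2, for each of 4 libraries. What R1 and R2 are was not given in the sources used here, and they were averaged and not treated as replicates. Columns were assigned to times by the library names that the study lists with its read totals. One protocol field of the 24 hr sample describes ChIP, while its other labels are those of an RNA-seq library. ChIP-seq reads were mapped with Bowtie and peaks were called against the input. The deposited peaks carry tag counts, a score (the negative logarithm of p), the fold enrichment over input and the FDR as a percent.

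The study gives read totals of the RNA libraries, but read counts per gene were not used here. The number of reads behind a value is therefore an estimate from the deposited scale, and the estimates were not summed against those totals. From genes with 1 transcript, 1 read on 1 kb was worth 0.801 to 1.11 RPKM, and 62.2% to 68.9% of low values came within 0.05 of a whole read, with GENCODE lengths standing in for RefSeq ones. Exact (Clopper-Pearson) intervals from these reads cover counting error only. They were not made for Ccl9 and Ccl20, which have several annotated lengths.

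Log2 ratios to the untreated library carry no pseudocount. A gene was counted as higher or lower at 2-fold where its mean over the 4 libraries was above 100. How the deposited RPKM was scaled was not given. Its sum over the tested coding genes was 6.46e+06 in the untreated library. At the read totals of the study, RPKM by its usual definition would give 1 read on 1 kb far less than estimated here. The deposited values are thus inflated over usual RPKM, and the level of 100 is a cutoff on the deposited scale only. Starts came from the mm9 genome with GENCODE M1, in which the last peak of all 20 chromosomes with peaks lay within the chromosome. Promoter sequences and their motifs came from RefSeq (GRCm38.p6) and were not joined to mm9 positions. The members and gene lists were chosen with earlier results of these data known. Named were the 8 members, up to 3 genes per list with the largest log2 ratio of either sign among those above the level, and the 3 coding genes nearest to each tested member. 1 marker gene is not reported here. The steps were tested on simulated data. Python 3.11.15, numpy 2.4.6, pandas 2.3.3 and scipy 1.17.1 were used.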

Additional observations from a re-analysis of the deposited data

How the results depend on the processing

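The ratios of the 8 members rest on 1 library per time and 1 shared control, so no setting stands in for replicates. No paired analysis was possible because each time has 1 library and no test was made. The signs of the 24 log2 ratios were kept under each setting, other than that of Ccl9 at 1.5 hr, which was −0.013 after centring within 20 GC bins. The median log2 ratio of the 8 members at 1.5, 6 and 24 hr was 4.29, 3.06 and 4.27 as deposited, 3.75, 2.58 and 3.75 with a pseudocount of 10, and 2.23, 1.65 and 2.69 with one of 100. It was 3.85, 3.80 and 4.16 on the median of ratios, 4.03 and 3.95 at 1.5 and 6 hr on the sum over coding genes, and 2.90 and 3.27 at 1.5 and 24 hr after GC centring. The pseudocounts, scalings and GC centring acted as their construction makes them act, on low values and on whole libraries. The number of the 6 tested members counted as higher was 4 to 6 at 1.5 hr, 4 to 6 at 6 hr and 6 at 24 hr. The settings were folds of 1.5 and 3, pseudocounts, scalings, GC centring and single columns. At 1.5 hr the 4 came from GC centring and from the pseudocount of 100. Without the filter or with a mean above 10, it was 8, 6 and 8 of all 8 members. The shares of all coding genes were not counted for folds of 1.5 and 3, pseudocounts, the scaling to the sum, GC centring and single columns. No setting gave a member at least 2-fold lower, or a peak within 0, 1 or 5 kb of a start or with an FDR of at most 1%.

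Settings chosen after the values were seen changed the number of members lower at 6 than at 1.5 hr from 7 to 4 on either scaling and to 3 after GC centring. The number higher at 24 than at 1.5 hr was 4 under all 5 settings. As deposited, 12.4% of the tested genes were higher at 6 than at 1.5 hr and 12.9% were higher at 24 than at 1.5 hr. The median scaling puts as many tested genes above as below by construction, so 4 of 8 is no excess there. The shares under the other settings were not counted. With R1 alone 16 of the 18 nearest genes were kept, and with R2 alone 14.

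For the other CC ligands, removing the filter changed the number at least 2-fold higher at 1.5, 6 and 24 hr from 1, 1 and 1 to 4, 2 and 5, and a mean above 10 gave the same numbers. Of all coding genes, 23.8%, 4.07% and 14.5% were higher without a filter and 31.4%, 1.94% and 17.2% with a mean above 10. The number lower went from 0, 1 and 0 to 3, 6 and 4 without a filter, and to 2 at 6 hr with a mean above 10. The shares of all coding genes lower were 14.1%, 31.3% and 17.8% without a filter and 9.01%, 32.6% and 13.6% with a mean above 10. On either scaling the number of ligands lower was 1 at 1.5 hr and 0 at 6 hr. For the CC receptors, of which none passed the filter, 5, 2 and 3 were higher and 4, 3 and 4 lower without it, to be read against the same shares. With a mean above 10, 2 were higher and 1 lower at 1.5 hr and 1 higher and 1 lower at 24 hr. For the NF-κB pathway, the 2 genes lower at 6 hr became 0 on either scaling.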

Other observations

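A few genes of the ligand and receptor lists that were too low for the filter had large ratios, and they are named after their values were seen. Ccl1, a T cell-derived ligand of Ccr8, was listed at 0.728, 47.4, 1.04 and 2.39 RPKM at 0, 1.5, 6 and 24 hr, so that it stood out at 1.5 hr alone. Ccrl2, an atypical receptor, was listed at 0.227, 19.8, 3.05 and 2.76 RPKM. Ccr1, a receptor of Ccl5, Ccl7 and Ccl9, had 8.79, 34.6, 5.88 and 23.4 RPKM. Ccr10 differed from these, with 35.9, 6.81, 27.8 and 6.35 RPKM, and was the receptor with the highest level before TNFα. At these levels the values rest on few reads.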
